A study of Salmo salar with 12 samples.

Results

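Of the 12 liver arrays, 6 were compared here, the 3 of medium U, exposed to 0.5 mg/L, with the 3 of high U, exposed to 1.0 mg/L. They were chosen by the dose in their titles alone, and no control array entered the contrast. The study held juvenile Atlantic salmon (Salmo salar) for 48 h in aerated lake water with depleted uranium added as uranyl acetate, at nominal concentrations of 0 (control), 0.25 (low U), 0.5 (medium U) or 1.0 mg/L (high U), in the dark and unfed, and each group was represented by 3 RNA samples. All groups shared the same stock of fish, the acclimation and the absence of food, and no genotype, sex or age beyond the parr stage was given. Replicate tanks of a concentration were not described, so the p-values below measure the spread between RNA samples and arrays, and tank and dose cannot be told apart. Each of the 3 slides carried 1 array of every group, so that high U could be set against medium U within a slide.

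Dissolved uranium acts on animals mainly as a heavy metal, and the uranyl ion binds phosphate and carboxylate groups of proteins and membranes. The liver takes up metals from blood and carries out bile acid synthesis, drug and hormone conjugation, glycogen storage and the secretion of plasma proteins, tasks that rest on the endoplasmic reticulum and on mitochondria. A transcript that responds to the lowest dose may return towards the control level at a higher dose, stay where it is or go further, and the step from medium to high U separates these outcomes.

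A level below is the log2 intensity of a probe minus the 75th percentile of its own array, and a difference is high U minus medium U on that scale. The levels are those of bulk tissue, in which fewer cells of a type and less RNA per cell cannot be told apart. Gene names come from the study's lists of responding transcripts, so only 781 of the 28769 probes tested carry a name, 643 of them a gene symbol. A probe received a name only because the study called it against the control at some dose, medium or high U included, so counts over named probes are descriptions and support nothing about direction. The names rest on sequence similarity, the salmon genome holds duplicated copies of many genes, and the roles given below are known from mammals.

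The arrays themselves differed between the doses. The unscaled 75th percentile of intensity was 153, 154 and 122 on the medium U arrays 1 to 3 and 68.8, 88.9 and 94.7 on the high U arrays, so every high U array was dimmer than every medium U array. Within slides the gap was -0.79 (log2) on slide 1, -1.15 on slide 2 and -0.36 on slide 3, whereas the 7 spike-in probes, whose RNA was mixed into each sample before labelling, differed by 0.06, -0.34 and 0.24. Between 54.6% and 61.5% of probes were well above background at medium U, and between 45.7% and 49.2% at high U. Among the tested probes, 1378 were well above background on all 3 medium U arrays and on no high U array, and 0 showed the opposite. Brightness and dose cannot be told apart in this contrast. After scaling, and with the tested probes split into 5 brightness classes of equal size, the median difference was -0.20 in the dimmest class and 0.05 in the brightest. The dimmest class had the lowest and the brightest class the highest median on all 3 slides.

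**Figure D1:**
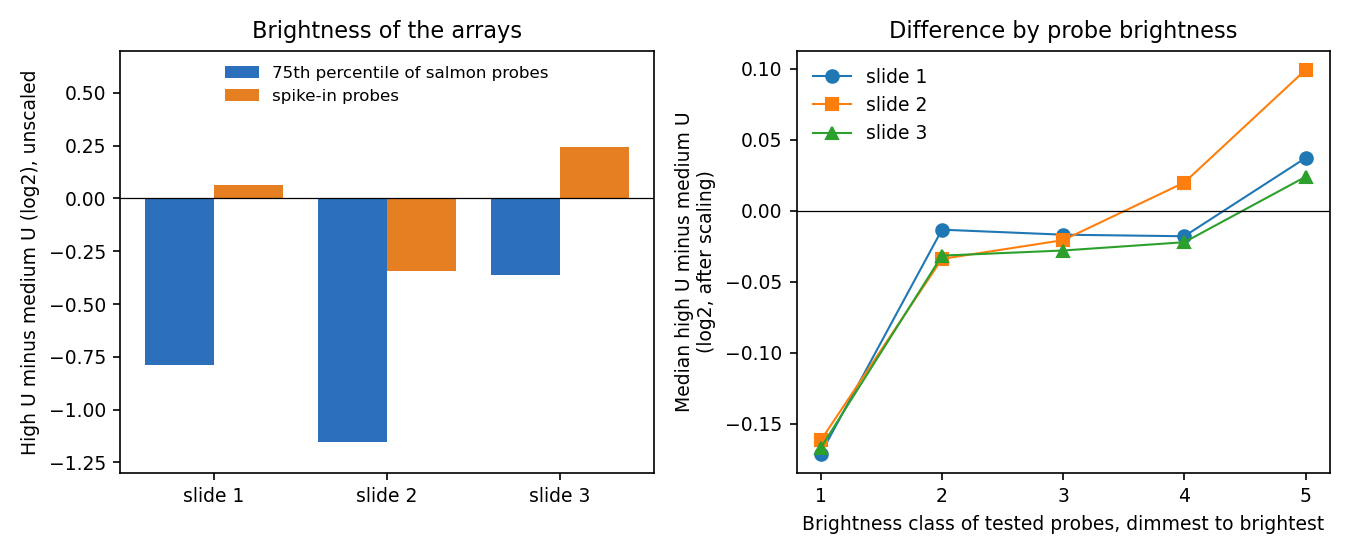
Left, unscaled brightness of the high U array minus that of the medium U array on each slide (log2), for the 75th percentile of the salmonid probes and for the spike-in probes. Right, the median difference between high and medium U after scaling (log2) in 5 brightness classes of the tested probes from dimmest to brightest, with a line for each slide. The gap in the salmonid probes is -1.15 on slide 2 and -0.36 on slide 3, and the dimmest class lies between -0.17 and -0.16 on all slides.

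No transcript passed the test between high and medium U. With limma, slide as a block and Benjamini-Hochberg adjustment over 28769 probes, 0 probes reached an adjusted p below 0.05 with a 1.5-fold difference (0% of the probes tested), and the lowest adjusted p was 0.0972, shared by 4 probes. Without adjustment, 3005 probes (10.4%) had p below 0.05, of which 1581 were lower and 1424 higher at high U. The differences were small in most probes. The median absolute difference was 0.20, the median standard error of a difference was 0.23, and 1808 probes were at least 1.5-fold lower in the mean against 1209 at least 1.5-fold higher. The filter entered that order, since 5675 probes were tested through medium U alone and 102 through high U alone, and these held 1239 of the lower and 154 of the higher probes. Among the 22992 probes well above background on all 6 arrays, 569 were at least 1.5-fold lower and 1055 at least 1.5-fold higher.

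Other settings moved that count. The methods' test, one-way across the 4 groups with Benjamini-Hochberg adjustment and then Tukey's HSD for this pair of doses without a block, called 122 probes, 53 lower and 69 higher at high U, when the one-way adjusted p had to be below 0.05. Only the one-way p was adjusted over probes there, and the Tukey p for this pair was not, unlike the p behind the limma count. Of the 781 named probes this test called 71, 25 lower and 46 higher, and the names themselves came from calls of such a test against the control. At a one-way adjusted p below 0.5, the value printed in the methods, it called 339. Leaving out high U array 1 gave 1 call (limma, lowest adjusted p = 0.0381). With spike-in scaling the median of all tested probes was -0.79, and 12807 probes were called lower and 3 higher, so every direction below is relative to the 75th percentile of the array.

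In 6258 probes (21.8% of the probes tested) the level was lower at high U on every slide, and in 5366 (18.7%) it was higher on every slide. With a 1.5-fold mean difference as well, 1361 (4.73%) were lower and 1035 (3.60%) higher. All high U arrays lay below all medium U arrays for 2516 probes (8.75%) and above them for 1710 (5.94%). More probes were lower than higher in these counts, but the order turned in other settings. Among the 22992 probes well above background on all 6 arrays, 19.5% were lower and 21.8% higher on every slide, and with normexp background correction 20.7% were lower and 29.7% higher. Across probes, which are not independent and share the arrays, the differences on slides 1 and 2 correlated with r = 0.43, those on slides 1 and 3 with r = 0.09 and those on slides 2 and 3 with r = 0.12.

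The 12 named transcripts with the largest negative differences included HDLBP, CD68, PER1 and NR1H4. HDLBP, which encodes the RNA-binding protein vigilin, had levels of 3.09, 3.46 and 3.26 on medium U arrays 1 to 3 and of 1.82, 2.13 and 2.26 on the high U arrays. The groups did not overlap, the difference was -1.20 (SE 0.17, 2.30-fold lower), and the adjusted p was 0.205 (limma). Its mean level was 0.55 in the control and 2.81 at low U, so high U lay between the control and the lower doses. CD68, a glycoprotein of macrophage lysosomes, gave 2.88, 3.22 and 3.22 at medium U and 2.03, 1.94 and 2.35 at high U, a difference of -0.99 (SE 0.16, adjusted p = 0.249). Its mean at high U, 2.11, was close to the control mean of 1.96, whereas low U had 3.22.

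PER1, a repressor in the circadian clock, had levels of -0.08, 0.10 and -0.09 at medium U and of -1.09, -1.07 and -0.75 at high U. The 2 sets of arrays were separate and the difference was -0.95 (SE 0.15, adjusted p = 0.249), with a control mean of -1.78. NR1H4, the nuclear receptor for bile acids, was measured at 1.45, 2.02 and 1.91 against 0.41, 1.26 and 0.96, which is -0.92 (SE 0.17, adjusted p = 0.264). It was lower by 0.76 to 1.04 on each slide, and its high U mean of 0.88 lay above the control mean of -0.06. STBD1, which tethers glycogen to membranes, and WISP1, a secreted matrix-associated signalling protein, were lower by 0.86 and 0.82, again with separate arrays. AIM1L and ZNF791, a zinc finger protein, differed by -1.40 and -1.07, and each was well above background on 2 of the 3 high U arrays.

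The 4 remaining names among the 12 lowest were not well above background on any high U array, so only a bound can be given there. YTHDF1, a reader of methylated adenosine in mRNA, had medium U levels of -2.71, -1.85 and -2.87 and measured values of -4.31, -3.92 and -3.87 at high U (-1.56 between the means). Set against the lowest signal counted as above background on the high U arrays, it was at least 1.18-fold lower. DTX3L, a ubiquitin ligase, was at least 2.07-fold lower. For DTX3L the measured value was used on high U arrays 1 and 3, where it exceeded that lowest signal. For MRPL33, a protein of the mitochondrial ribosome, and KCTD12, an auxiliary subunit of GABA receptors, the medium U mean was itself below that limit, and no fold is given. With normexp background correction YTHDF1, MRPL33 and KCTD12 turned to 0.04, 0.20 and 0.24.

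**Figure D2:**
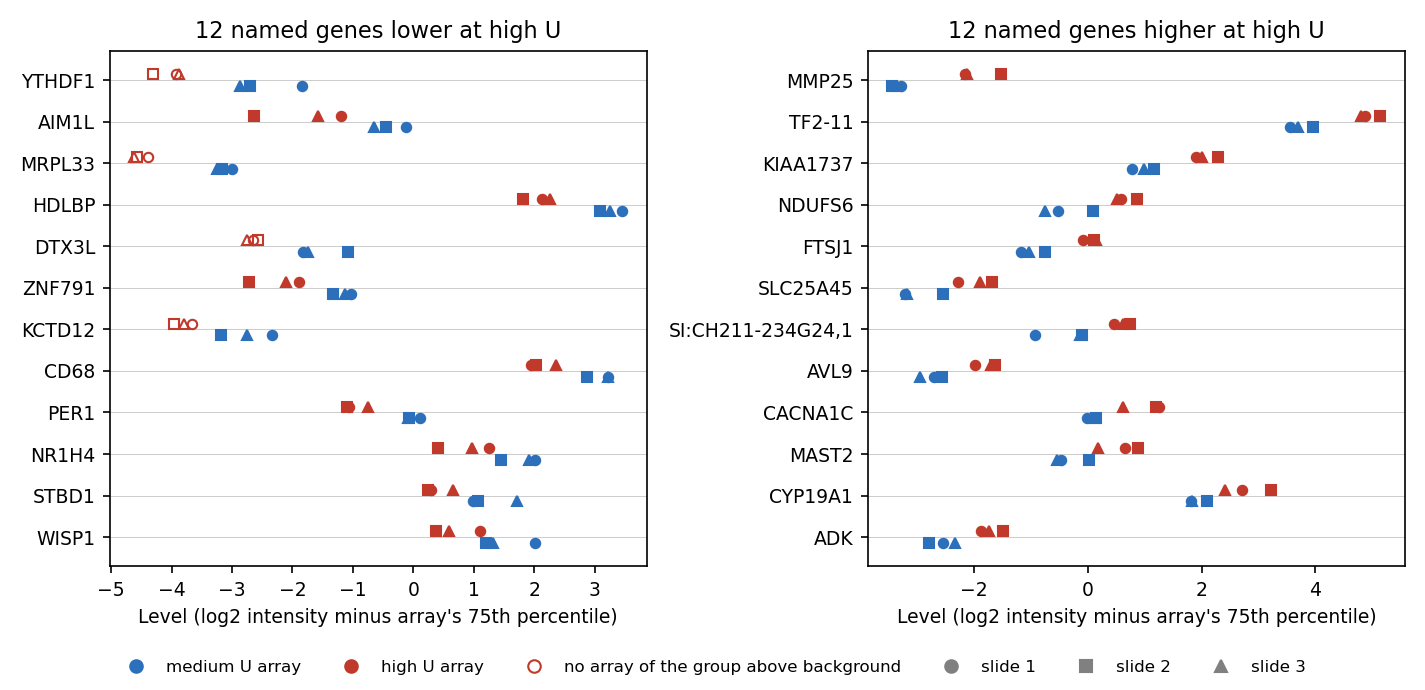
Levels (log2 intensity minus the 75th percentile of the array) of the 12 named genes with the largest negative and the 12 with the largest positive mean difference among those with 1 direction on all slides. Each point is an array, blue for medium U and red for high U, the shape gives the slide, and open points mark genes not above background on any array of that group. The arrays of the 2 doses do not overlap in any of the 24 genes, which were chosen for the size and shared direction of their differences, and none of them passed the limma test.

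The 12 named transcripts with the largest positive differences included TF2-11, KIAA1737, NDUFS6 and CYP19A1. TF2-11, annotated as a retrotransposon polyprotein, was one of the 4 probes at the lowest adjusted p (0.0972, limma), with 3.97, 3.55 and 3.69 at medium U and 5.14, 4.88 and 4.79 at high U. It was higher on every slide by 1.10 to 1.33, with a mean difference of 1.20 (SE 0.14), and its high U mean of 4.94 approached the control mean of 5.38. KIAA1737, which encodes a partner of the clock protein CLOCK, had 1.16, 0.77 and 0.99 against 2.29, 1.90 and 2.00, a difference of 1.09 (SE 0.16, adjusted p = 0.236). NDUFS6, a subunit of respiratory complex I, had 0.08, -0.52 and -0.76 against 0.87, 0.58 and 0.51. Its difference was 1.05 (SE 0.16, adjusted p = 0.249), and low U (-0.15) and medium U (-0.40) both lay below the control mean of 1.38.

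CYP19A1, the aromatase that makes estrogens from androgens, had levels of 2.10, 1.81 and 1.83 at medium U and 3.22, 2.71 and 2.42 at high U. The difference was 0.87 (SE 0.16, adjusted p = 0.259), without overlap and with a control mean of 3.51. CACNA1C, the pore of an L-type calcium channel, differed by 0.93, the kinase MAST2 by 0.91, FTSJ1, listed under the description of a cell division protein, by 1.04, the mitochondrial carrier SLC25A45 by 1.03 and the secretory protein AVL9 by 0.97. MMP25, listed under a description of another matrix metalloproteinase, had the largest difference of the names that were higher, 1.43, with levels of -3.44, -3.29 and -3.36 against -1.53, -2.16 and -2.13, and like SLC25A45 it was well above background on 2 of the 3 medium U arrays. A probe listed as ADK and described as adenylate kinase differed by 0.86, and a leucine-rich repeat protein completed the 12 with 1.00. The methods' one-way test with Tukey's HSD called 22 of the 24, all but WISP1 and SLC25A45. It called 71 of all 781 named probes and 122 of the 28603 probes with all 12 values. The 24 were picked for large differences in these same values, so their count is no separate support. For all 24 names, low U differed from the control in the direction opposite to the difference between high and medium U. The choice favours that order, because names came from calls against the control and the largest differences were then taken. Of the 724 named probes called at low U, 82.2% turned this way in the mean. Some of the 24 also passed the filter only through the dose where they were higher, so the order is a description.

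Probes without a name reached larger differences, some of them through 1 array. The files do not pair these probes with genes. CUST_54244_PI426552878 was at -1.13, -0.87 and -0.40 at medium U and at -0.53, 0.32 and 10.4 at high U, so that its mean difference of 4.19 (SE 2.03, adjusted p = 0.528) came from high U array 3. CUST_9708_PI426552878 lay at 5.05, 6.06 and 7.80 on the medium U arrays and at 10.8, 7.42 and 7.98 on the high U arrays, and the control arrays ranged from 5.11 to 10.3. By contrast, CUST_45944_PI426552878 was even within medium and within high U, at 1.06, 0.99 and 1.25 against -0.85, -0.45 and -0.69. Its control arrays, however, ranged from -2.83 to -0.49 and its low U arrays from -0.62 to 0.83. Its difference was -1.76 (SE 0.42, adjusted p = 0.306). CUST_55345_PI426552878 differed by -1.63, with -3.51 on slide 1 against -0.50 and -0.88 on the other slides, and its medium U levels were -1.05, 2.09 and -0.79.

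To see whether the response seen at the lowest dose went on or turned back, the low-dose responders were followed. These were the 3577 probes called between low U and control in the same fit, 1932 higher (6.72% of the probes tested) and 1645 lower at low U (5.72%), and the medium and high U arrays entered their choice only through the filter and the shared estimates of spread and slide. The size of this set depended on single arrays: it held 1200 probes without control array 1, 1244 without low U array 2, 1302 without low U array 3 and 1884 without the slide block. Their difference between high and medium U was turned so that a negative value points back towards the control. The median was -0.30, with -0.36 on slide 1, -0.33 on slide 2 and -0.21 on slide 3. In the mean, 83.2% of responders pointed back, and over all 28769 probes turned by their own low U direction the median was -0.08 and 60.8% pointed back. The responders' smallest value on a slide, -0.21, was farther from 0 than the -0.09 to -0.06 of all probes.

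On every slide, 1996 responders (55.8%) pointed back and 194 (5.42%) further, against 27.5% and 12.9% of all tested probes turned in the same way. With a 1.5-fold difference as well, 1872 of all 28769 tested probes pointed back and 524 further. Of the 3577 responders, 657 pointed back and 14 further by that count. The step was larger in the transcripts that were lower at low U, with a median of -0.45 (-0.54, -0.54 and -0.27 on slides 1 to 3), than in those higher at low U, with -0.18 (-0.21, -0.18 and -0.16). The slide medians of these 2 sets did not overlap. With normexp background correction the 2 medians were closer, -0.33 and -0.24, and with the authors' value table they were -0.36 and -0.25. Relative to the control, the median responder stood at 1.01 at low U, where it was chosen, at 1.12 at medium U and at 0.78 at high U.

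**Figure D3:**
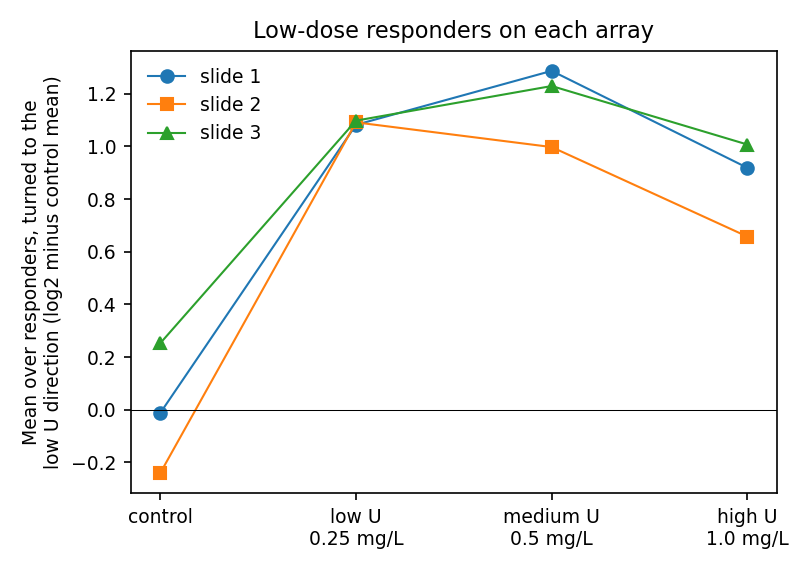
Mean level of the 3577 low-dose responders on each of the 12 arrays, turned to the direction of the low U response and given relative to the mean of the control arrays (log2), with a line for each slide. The low U and control arrays chose these probes, so their gap is set by the choice. On each slide the high U array lies below the medium U array, at 0.66 to 1.01 against 1.00 to 1.29, and the 2 ranges overlap slightly, with the slide 2 array the lowest at both doses.

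**Figure D4:**
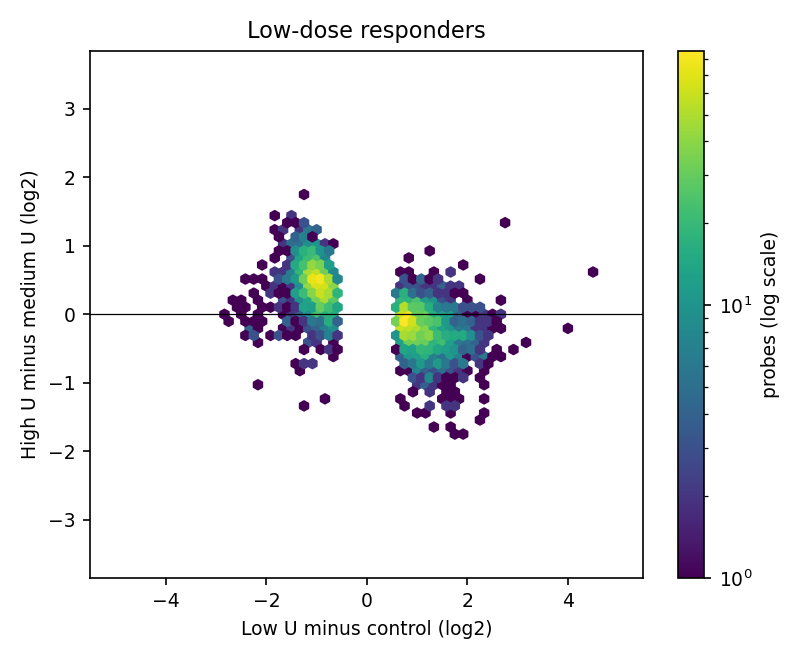
Difference between high and medium U (log2, vertical axis) against that between low U and control (log2, horizontal axis) for the 3577 low-dose responders, with the colour giving the number of probes on a log scale. Probes lower at low U lie mostly above 0, with a median of 0.45 in size, and those higher at low U mostly below 0, with a median of 0.18 in size.

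Brightness moved with this result as well, since the control and high U arrays were dim and the low and medium U arrays bright. Its part in the result was not tested. Over the 2724 responders well above background on all 12 arrays the median was -0.30, and over the 872 in the brightest class it was -0.26. Of the 2724, the 1297 higher at low U had a median of -0.13 and the 1427 lower had -0.47. Over all responders these medians were -0.18 and -0.45. With a 1.5-fold difference as well, 61 of the 1297 and 424 of the 1427 pointed back on every slide. Over all responders these counts were 196 of 1932 and 461 of 1645. On slides 1 to 3 the gap in brightness was -0.79, -1.15 and -0.36, and the median step of the responders was -0.36, -0.33 and -0.21. With spike-in scaling, where 15858 probes were called at low U, the median relative to all tested probes was -0.05. It was -0.048 in the probes higher at low U and -0.49 in those lower.

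Responders that pointed further at high U were few, and the carbohydrate group held 2 of the named ones. PYGM, described as liver glycogen phosphorylase, which releases glucose from glycogen, had levels of 3.04, 3.20 and 3.04 at medium U and 3.61, 3.68 and 3.43 at high U. The arrays did not overlap and the difference was 0.48 (SE 0.14, adjusted p = 0.356), with 3.11 at low U and 2.30 in the control. G6PC, the phosphatase that frees glucose for export, had 1.87, 2.26 and 2.14 against 2.70, 2.65 and 2.48, a difference of 0.52 (SE 0.20, adjusted p = 0.422). Its control mean was 1.40 and its low U mean 2.35. NDUFA3, another subunit of complex I, pointed further by 0.29, and it turned to -0.04 with normexp background correction. HSPG2, the basement membrane proteoglycan perlecan, named here after its values were seen, pointed further in both of its probes, by 0.40 and 0.25.

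The gene groups below are counted over named probes. Of all 781 named probes, 0 were called by limma in either direction, 39.7% were lower and 27.4% higher on every slide, and the median difference was -0.08, against 21.8%, 18.7% and -0.03 for all probes tested. By limma 0 members of the 23 groups were called, and by the methods' one-way test with Tukey's HSD 19 of 292 were, 7 lower and 12 higher, at most 2 in any group. That test called 71 of all 781 named probes and 122 of the 28603 probes with all 12 values. Of the 781 named probes, 724 were called at low U, 522 higher and 202 lower. Of these 724 named responders, 59.7% pointed back and 7.18% further on every slide. Each group is read beside these shares, as a description.

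Xenobiotic metabolism, the enzymes that oxidise and conjugate drugs and hormones, had the lowest median of the groups, -0.40, with 14 of 22 probes lower (63.6%) and 1 higher on every slide. UGT2A1, a glucuronosyltransferase, differed by -0.67, with -1.37 on slide 1 against -0.44 and -0.21 on the other slides. Its other probe differed by -0.42 (SE 0.38), with 0.14 on slide 3. CYP2D3, a cytochrome P450, differed by -0.64 and ALAS1, which starts haem synthesis, by -0.63. CYP2D3 and ALAS1 overlapped between the doses, CYP2D3 at 2.34, 3.36 and 3.08 against 2.11, 2.56 and 2.18. The exception, higher at high U on every slide, was CYP19A1. The 5 probes listed as UGT1, named here after their values were seen, differed by -0.55, -0.41, -0.26, -0.25 and -0.02. Only the probe at -0.02 is described as a glucuronosyltransferase of family 1. The others are listed under descriptions of glucuronosyltransferase 2 polypeptides, so their symbol and description disagree. The probe at -0.55 had 2.85, 3.19 and 3.26 at medium U against 2.53, 2.67 and 2.46. All 22 probes, from 15 genes, had been called at low U, 20 of them higher. Among all 781 named probes, 724 had been called at low U, 522 of them higher. Of the 22, 15 pointed back on every slide and 0 further, beside 59.7% and 7.18% of all named responders.

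In lipid, sterol and bile acid metabolism, 11 of 22 probes were lower and 3 higher on every slide, with a median of -0.15. Besides NR1H4, FADS2, a fatty acid desaturase, was lower by 0.68, with 2.18, 2.34 and 2.73 at medium U and 1.66, 1.96 and 1.59 at high U. ABCC2, a canalicular export pump, was lower by 0.44 and overlapped between doses, while its other probe differed by 0.10 and had been lower, not higher, at low U. HMGCS1, an enzyme of cholesterol synthesis, was higher by 0.62 (2.46, 2.24 and 2.53 against 3.35, 2.93 and 2.82), and its control mean was 3.91. Amino acid breakdown gave a like median, -0.17, with 10 of 22 probes lower and 3 higher. AMT, of the glycine cleavage system, was at 1.16, 1.48 and 1.25 against 0.58, 0.78 and 0.61, which is -0.64 (SE 0.15, adjusted p = 0.306). KMO, of the kynurenine route, was lower by 0.47, and the mitochondrial choline dehydrogenase CHDH higher by 0.68.

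Protein folding and secretion in the endoplasmic reticulum was the group with the most probes, 27, of which 14 were lower and 6 higher on every slide (median -0.20). XBP1, a transcription factor of the unfolded protein response, had levels of 2.76, 3.02 and 3.12 at medium U and 2.13, 2.38 and 2.51 at high U. Its difference was nearly equal on the slides (-0.64, -0.63 and -0.61), with an adjusted p of 0.429 (limma), and its high U mean of 2.34 lay above the control mean of 0.23. PDIA4, a disulfide isomerase, was lower by 0.73, whereas SEC24D, of the vesicle coat, was higher by 0.50. Of the 26 responders in the group, 18 pointed back on every slide and 1 further. Cytosolic chaperones, 5 probes of 3 genes, had 5 of 5 differences below 0, with 3 of 5 lower on every slide. Of all 781 named probes, 461 were below 0. HSPA8, the constitutive Hsp70, differed by -0.29, and by -0.09 at its other probe, which was at 0.05 on slide 3.

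Mitochondrial groups were divided. In respiratory complexes II to IV, 5 of 11 probes were lower and 2 higher on every slide (median -0.12). COX7A2L, an assembly factor of respiratory supercomplexes, differed by -0.38 (SE 0.21). Its other probes differed by -0.37 (SE 0.26) and -0.20 (SE 0.22), and all of its probes are among those lower on every slide. SDHA, of succinate dehydrogenase, was lower by 0.33. By contrast MT-CO3, encoded in mitochondrial DNA, was higher by 0.73, at 0.34, -0.05 and 0.37 against 1.33, 0.71 and 0.81. Complex I had 3 of 4 probes higher on every slide, NDUFS6 and both probes of NDUFA3. Of 9 probes of the TCA cycle, 4 were lower and 1 higher, and fumarate hydratase, FH, differed by -0.48. In mitochondrial translation, import and quality control, all 14 probes were responders that had been higher at low U, beside 522 of the 724 named responders. Of the 14, 4 pointed back and 1 further on every slide. CLPX, of a matrix protease, was lower by 0.63 there, at -0.02, 0.32 and 0.13 against -0.54, -0.23 and -0.70. The 2 ATP synthase probes lay between -0.13 and 0.10.

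Redox defence held 5 of 9 probes lower and 2 higher on every slide. PRDX2, a peroxiredoxin, had levels of 1.12, 1.66 and 1.14 at medium U and 0.35, 0.93 and 0.64 at high U, a difference of -0.67 (SE 0.28, adjusted p = 0.467). CBR1, a carbonyl reductase, was lower by 0.62 but overlapped between the doses. In the cytosolic ribosome, 7 of 10 probes were higher and 0 lower on every slide, with a median difference of 0.09. The median level of these probes was 6.54, within the brightest class, and in that class 28.4% of the probes were higher on every slide with a median difference of 0.05. In translation initiation, 5 of 12 probes were lower and 4 higher on every slide, and the median was -0.07. The members farthest from 0 there were EIF4E, which binds the mRNA cap, and EIF1B, each higher by 0.48, EIF4E at 1.49, 1.40 and 1.47 against 1.95, 1.87 and 1.97.

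Coagulation and complement split by transcript, with 8 of 15 probes lower and 5 higher on every slide (median -0.23). F9, listed with a description of coagulation factor VII, differed by -0.43 (SE 0.18) and -0.30 (SE 0.24) at its probes. F10 differed by -0.42 (SE 0.17) and -0.23 (SE 0.24), and all of these probes were lower on every slide. The complement gene C4A was higher by 0.65, and ITIH4, an acute-phase inhibitor, by 0.66, at 3.91, 3.72 and 4.23 against 4.66, 4.65 and 4.52. Of the 13 responders there, 11 pointed back and 1 further. In the extracellular matrix and growth factor group, 9 of 14 probes were higher and 3 lower on every slide, and the median was 0.27. FN1, fibronectin, was higher by 0.70, at 2.38, 2.13 and 2.50 against 2.99, 2.82 and 3.31, and by 0.47 at its second probe. COL18A1, a basement membrane collagen, was higher by 0.55. Matrix genes pointed both ways relative to low U, with 7 of 13 responders back and 4 further.

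Iron, haem and metal handling had the highest median of the groups, 0.28, with 4 of 6 probes higher and 1 lower on every slide. All 6 were responders, and 4 of them had been lower than the control at low U. On every slide 4 of the responders pointed back and 1 further. The calcium channel gene CACNA1C was counted there, and the lower probe was ALAS1. HBB, a haemoglobin chain, had levels of 1.23, 1.21 and 1.28 at medium U and 2.11, 1.99 and 1.96 at high U, 0.78 higher (SE 0.14, adjusted p = 0.259). The iron exporter SLC40A1 was higher by 0.32. HBB is the single tested marker of 10 listed for red blood cells, and its linear level, relative to the 75th percentile, was 2.31 to 2.43 on the medium U arrays against 3.88 to 4.32. CD68 was 1 of 12 listed immune markers, at 7.36 to 9.32 against 3.85 to 5.11, and FBN1 1 of 6 fibroblast markers, at 1.18 to 1.40 against 1.51 to 1.87. Their part in the results was not tested. Of 15 hepatocyte, 12 exocrine pancreas and 10 muscle markers, 0 had a named probe among those tested, so the labelled tissue could not be checked against them. The muscle markers MYH7 and TTN are listed as responding genes in the study's pathways, but no tested probe carried these symbols here.

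**Figure D5:**
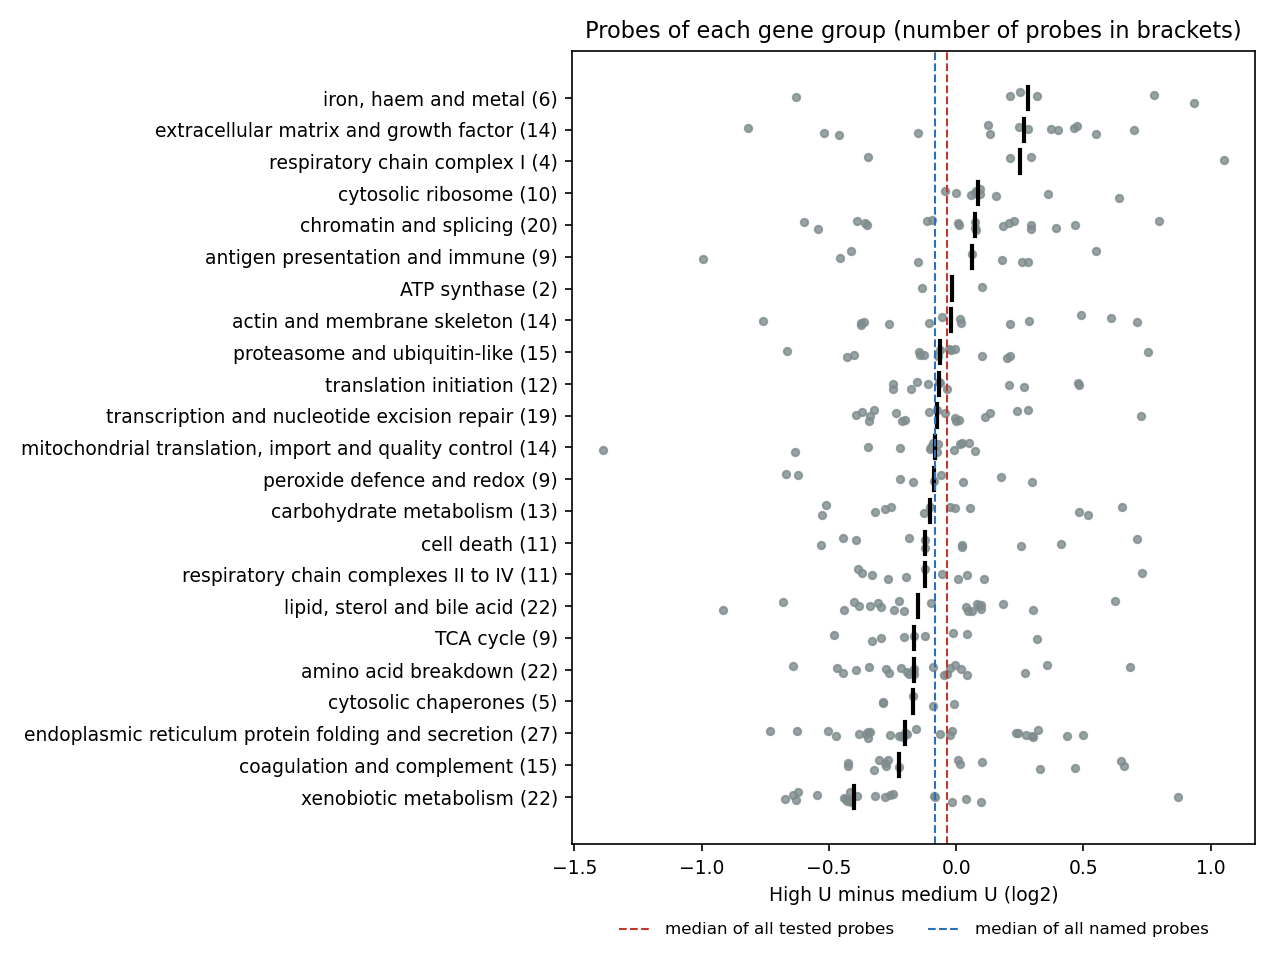
Mean difference between high and medium U (log2) of every named probe in 23 gene groups, with a grey point for each probe, a black bar for the median of the group and the number of probes in brackets. Dashed lines mark the median of all tested probes (-0.03) and of all named probes (-0.08). Xenobiotic metabolism has the lowest median (-0.40) and iron, haem and metal the highest (0.28), and probes on both sides of 0 occur in all groups but the cytosolic chaperones.

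Chromatin and splicing had 4 of 20 probes lower and 7 higher on every slide, with a median of 0.07, with the splicing factor USP39 higher by 0.80 and HNRPLL lower by 0.60. In transcription and excision repair, 7 of 19 were lower and 2 higher, and RAD23B, a damage recognition protein, was higher by 0.73, at -1.49, -1.81 and -1.31 against -0.62, -1.11 and -0.70. In the proteasome and ubiquitin group, FBXW7, a ubiquitin ligase subunit, was higher by 0.75 and COPS6, of the signalosome, lower by 0.43, with COPS6 at 0.01 under normexp background correction. Among actin and membrane skeleton genes, SPTAN1 was higher by 0.71 and ADD3 by 0.61, or by 0.21 at its other probe. STMN1, which destabilises microtubules, was lower by 0.76. STMN1 was not called at low U, and its high U mean of -0.02 lay below that of every other group. In carbohydrate metabolism, GPD2 was higher by 0.65. In the immune group, 4 of 9 probes were lower and 4 higher on every slide, with a median of 0.06, and PRF1, perforin, was lower by 0.41.

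Of the genes also chosen for qPCR, 7 are described here. AIFM1, a mitochondrial flavoprotein with a role in cell death, had levels of 1.05, 1.73 and 1.23 at medium U and 0.44, 1.11 and 0.88 at high U, a difference of -0.53 (SE 0.25, adjusted p = 0.520) with overlap between the doses. JAK1, a cytokine receptor kinase, was at 1.98, 1.84 and 2.09 against 2.68, 2.19 and 2.69, a difference of 0.55 (SE 0.17, adjusted p = 0.369) without overlap. HSP90AB1, a chaperone, differed by -0.29 (SE 0.21) and P4HB, a disulfide isomerase, by 0.30 (SE 0.23) at the brighter of its 2 probes, while the other differed by -0.21 and was lower on every slide. The remaining 3 lay near 0, SDHD at 0.04 (SE 0.19), COX6B1 at 0.01 (SE 0.20) and the peroxiredoxin PRDX3 at -0.06 (SE 0.23). All 7 had been called at low U, as had 724 of all 781 named probes. The 3 near 0 had medium U means of 1.97, 5.07 and 2.75 against 0.40, 3.44 and 1.24 in the control.

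The spread between spots of 1 array is only a part of the error of a difference between samples. For the 24 probes printed 10 times and above background on all 6 arrays, the median SD between spots of an array was 0.11 to 0.16. Of 49 genes with more than 1 named probe, 33 had all probes on the same side of 0, and the median range between the probes of a gene was 0.15.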

How the data were processed

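Liver RNA was hybridised to 1-colour custom salmonid arrays. The authors scanned them with Agilent Feature Extraction 10.7 and deposited, per spot, a background-subtracted intensity with no scaling between arrays; they also deposited a table of their own log2 values, used as an alternative. Control spots (1319 of 62976) and outlier-flagged spots (10 to 29 on the 6 arrays) were left out, 0 spots were saturated, and log2 intensities of repeated spots were averaged, and each array was then scaled by its own 75th percentile. Tested were probes that were well above background on all 3 medium or all 3 high U arrays, with at least 2 values in each group and pairs on at least 2 slides. limma 3.58.1 (R 4.3.3; lmFit and eBayes) was fitted on all 12 arrays with 4 group means and slide as a block, two-sided, with Benjamini-Hochberg adjustment and a call at adjusted p below 0.05 and 1.5-fold. All adjusted p-values come from this fit unless named otherwise.

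Medium and high U samples with the same replicate number in the labels shared a slide, and their deviations from the group means correlated with r = 0.29, 0.47 and 0.38, so the slide block is also the pairing of these doses. Files paired no probes with genes. Names were tied through the fold changes of the study's own list (1956 of 1995 entries tied to a probe), which served only as a key and whose fold changes and p-values are not given. The study's second list, of mammalian symbols, could be tied to 379 probes with a symbol. The symbol was the same in both lists for 290 of the 379, so the identity of a named gene can depend on the list. On simulated arrays with 28603 probes, the fit recovered 29.0% of 100 probes changed by a log2 of 1 and 70.0% of 100 changed by a log2 of 2 between medium and high U, with 11 false calls. The number of arrays limits the precision. Named genes were the 12 named probes with the largest mean difference in each direction among those with 1 direction on all slides, the largest differences of any probe above background on all 6 arrays, the qPCR genes, and up to 4 members of each gene group; HSPG2 and UGT1 were chosen after their values were seen. The members, gene groups and tests were chosen with earlier results of these data known. The planned normexp correction used the median spot signal, since a mean signal was not used here. Some items of these groups are not reported here.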

Additional observations from a re-analysis of the deposited data

How the results depend on the processing

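The count of 0 called probes was the same without the slide block (1924 at unadjusted p below 0.05), on the 6 arrays alone with the replicate block (0), with the replicate number as a block in place of the slide (0), with both other filters, with normexp, median, quantile or cyclic loess settings, with outlier flags kept, without a fold minimum and with the authors' value table. It was 7502 with no filter on dim probes (295 lower, 7207 higher), 12810 with spike-in scaling, 1854 at adjusted p below 0.5 and 122 with the methods' one-way test, or 339 at the adjusted p below 0.5 that the methods print, a setting added after the data were seen. Leaving out each medium or high U array in turn gave 0 to 1 calls. The replicate block changed no call and gave a responder median of -0.28.

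The responder median lay between -0.37 and -0.27 in these settings other than spike-in scaling. There it was -0.049 relative to the shift of all probes, with -0.048 for responders higher and -0.49 for those lower at low U. When each array of any group was left out, the median lay between -0.38 and -0.27. Leaving out all arrays of a slide was added after the data were seen. Without slide 3 it was -0.52, and without slide 1 or slide 2 0 responders were called. The share of probes lower on every slide was 14.2% with no filter and 88.8% with spike-in scaling. On the 2 slides left when an array was removed it was 30.9% to 34.9%, and without slide 3 34.9%, as fewer slides must agree.

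Other differences turned sign. With normexp they were YTHDF1 (0.040), MRPL33 (0.20), KCTD12 (0.24), COPS6 (0.011), SDHD (-0.21), P4HB (-0.090), COX6B1 (-0.16), NDUFA3 (-0.039) and the UGT1 probe at -0.41 (0.056). COX6B1 also turned with quantile (-0.067), cyclic loess (-0.055) and the value table (-0.071), and the UGT1 probe at -0.02 with spike-in scaling (0.016). When each medium or high U array was left out in turn, COX6B1 ranged from -0.17 to 0.20, SDHD from -0.090 to 0.17, PRDX3 from -0.13 to 0.054 and that UGT1 probe from -0.21 to 0.13. The cause was not tested. Arrays that were dimmer at high U limit what can be said of dim probes.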
